A study of Melospiza melodia with 33 samples.

Results

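The comparison described here sets 15 blood libraries taken after a first simulated territorial intrusion against 10 baseline libraries, out of 33 libraries from 25 song sparrows (Melospiza melodia). The members are all libraries whose title names a first trial, whichever song was played, and each comes from a different bird. In 8 of the 15 the bird had been played foreign song, recorded at Millbrook, New York, and in the other 7 local song, recorded at Linesville, Pennsylvania, where all birds lived. The 10 baseline birds had no playback and no trial. All birds were wild adult males, and RNA came from whole blood with no transgene, drug or selection of cells. Each first-trial bird heard 1 of 6 recordings: in first trials stimulus 1 was played to 3 birds, stimulus 2 to 2, stimulus 3 to 3, stimulus 4 to 1, stimulus 5 to 4 and stimulus 6 to 2. Birds that shared a recording are therefore not independent tests of song in general. How long after playback birds were bled, when they were caught and how baseline birds were caught is not given by the labels. Playback, capture and handling cannot be told apart in this design.

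A male songbird answers a rival's song on its territory with approach, song and attack. Such encounters, and capture itself, are known to engage the catecholamine and glucocorticoid arms of the stress response, which act on blood cells through adrenergic receptors and the receptor NR3C1. Glucocorticoids switch on target genes such as TSC22D3 and SGK1 within hours and move lymphocytes and granulocytes between blood and tissues. Bird blood consists mostly of nucleated red cells that go on making messenger RNA, with nucleated thrombocytes, heterophils (the avian counterpart of neutrophils), lymphocytes and monocytes as minor cells. A whole-blood value adds up all of these, so fewer cells of a type and less RNA per cell cannot be told apart.

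Libraries held 64.7 to 92.7 M counts after first trials and 74.2 to 103.7 M at baseline. The number of genes with at least 1 count was 14220 ± 807 after first trials and 14660 ± 373 at baseline (SD, n = 15 and 10; two-sided permutation test, p = 0.124, adjusted p = 0.372 over 3 library measures). The 10 most abundant genes took 37.7% of counts after first trials and 36.8% at baseline (permutation p = 0.713). Erythroid markers had the highest summed level of the cell type lists. Of 27 listed, 19 had a row in the counts. These summed to 14040 to 26830 CPM (counts per M of scaled library size) after first trials and 11990 to 23700 CPM at baseline. Every cell type list had 0 members at 0 in all 25 libraries, so that count does not identify blood. The library labelled 8439 was in doubt. In the 7 other birds with a second-trial library, the deviations of a bird's libraries from their group means correlated at 0.304 to 0.567 across genes, against −0.151 for 8439, so results are also given without its first-trial library. The labels list 2 of 3 sequencing lanes for 8425 and 8446. Among baseline birds, 8448 and 8450 moved the counts of genes most when left out. The labels treat birds as separate samples, and p-values measure the spread between birds.

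Of 11992 genes tested, 1 passed the threshold of an adjusted p of 0.05, a share of 0.00834% (edgeR's quasi-likelihood test, Benjamini-Hochberg adjustment). That gene, DBT, encodes the transacylase subunit of the mitochondrial complex that breaks down branched-chain keto acids. DBT had a lowest, median and highest level of 0.38, 0.921 and 1.49 CPM in the 15 first-trial birds, against 0.59, 1.17 and 129 CPM in the 10 baseline birds. Nearly all of the difference lay in 3 baseline birds, 8443 at 97.8, 8447 at 90.3 and 8448 at 129 CPM. The other 7 baseline birds reached at most 1.59 CPM and overlapped the first-trial birds. DBT was lower in first-trial birds than in baseline birds by this test, with a log2 fold change of −5.16 ± 0.87 (± standard error; edgeR adjusted p = 0.0438). Without those 3 birds, a choice made from DBT's own values, it stood at −0.17; the call rests on those 3 birds. The call was lost without the library labelled 8439 (edgeR adjusted p = 0.0862), without any other single first-trial bird, and without 8443, 8447 or 8448 (edgeR adjusted p of 0.0735, 0.0609 and 0.09), and it remained without any 1 of the other 7 baseline birds.

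Below the threshold, 241 genes stood higher (2.01%) and 479 lower (3.99%) at an unadjusted p under 0.05 by the same test, and 0 genes had groups that did not overlap. The median log2 fold change of all genes was −0.045, and 42.7% of genes had a positive value. DESeq2 called 5 genes (0.0417%): PFKFB3, RELL2, CLMN and ADGRG2 as higher and DBT as lower. Limma-voom called 0 genes, with 533 at an unadjusted p under 0.05. These counts rested in part on single baseline birds. Without 8450 the numbers were 621 higher and 561 lower, and without 8448 they were 229 higher and 272 lower (2.26% lower).

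The other named genes of smallest p with lower values after a first trial repeated this form, none of them past the threshold. Each had 1 extreme baseline bird. The naming rule favours this form in part, since it asks for an average log2 CPM of at least 0. FLVCR1 and SGO1 stayed below 1 CPM in every other bird compared, so they met it only through their high bird. CEP170B and NSG1 had medians below 1 CPM in both groups. SHROOM2, an actin-binding protein of cell junctions, had a lowest, median and highest level of 0.902, 1.32 and 2.76 CPM in first-trial birds, against 1.86, 3.08 and 258 CPM in baseline birds, with the last value in 8442. Here the other baseline birds also stood above most first-trial birds: 9 of 15 first-trial birds lay below the lowest baseline bird, and all 15 lay below the baseline median. Its log2 fold change was −4.09 ± 0.77 (edgeR adjusted p = 0.108) and −0.86 without 8442 (edgeR adjusted p = 0.507). FLVCR1, a membrane transporter linked to haem export and choline uptake, ran from 0.0362 to 0.634 CPM in first-trial birds and reached 36.6 CPM in baseline bird 8448, with the next baseline bird at 0.472 CPM. CEP170B, a relative of a centrosomal protein, reached 1.36 CPM in first-trial birds and 86.0 CPM in baseline bird 8447. SGO1, which protects sister chromatid cohesion, reached 0.47 CPM in first-trial birds and 29.0 CPM in the same baseline bird. NSG1, a protein of endosome traffic in neurons, reached 1.77 CPM in first-trial birds and 66.3 CPM in baseline bird 8449. Without the 1 high bird the log2 fold changes were −0.13 for FLVCR1, −0.27 for CEP170B, −0.017 for SGO1 and −0.26 for NSG1, so almost nothing of these differences remained.

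**Figure D1:**
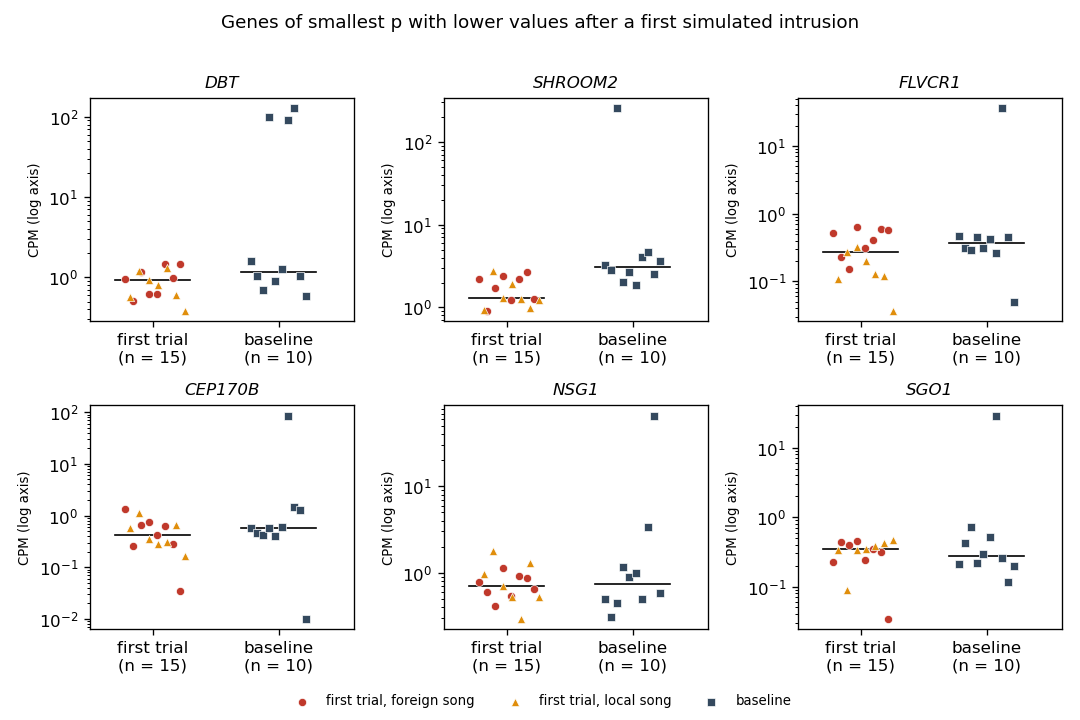
Level in CPM (log axis) of the 6 named genes of smallest p with lower values after a first trial. Points are 15 first-trial birds (circles foreign song, triangles local song) and 10 baseline birds (squares). Lines are medians, and the only value of 0, a baseline bird in the CEP170B panel, is drawn at the foot of the axis. DBT stood near 100 CPM in 3 baseline birds, and each of the other genes was extreme in 1 baseline bird.

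The 6 named genes of smallest p with higher values after a first trial were high in several birds each, although none passed the threshold. Genes left out by the naming rule included LOC134432669, for its LOC number, and ADGRG2, for its low level. Their unadjusted p by edgeR, 2.77e-04 and 3.71e-04, lay among those of the 6. LOC134432669 was high in only a few first-trial birds and is described among the closing observations. PFKFB3, an enzyme that makes the main allosteric activator of phosphofructokinase and so speeds glycolysis, had a lowest, median and highest level of 420, 651 and 1008 CPM in first-trial birds, against 256, 375 and 576 CPM in baseline birds. All 15 first-trial birds lay above the baseline median and 8 above the highest baseline bird. Means were 645 ± 195 CPM after first trials and 382 ± 89.5 CPM at baseline (SD, n = 15 and 10), a log2 fold change of 0.76 ± 0.16 (edgeR adjusted p = 0.253; DESeq2 adjusted p = 0.0318). It ran from 0.70 to 0.85 when single birds were left out. Leaving out baseline bird 8447, the highest at 576 CPM, gave the largest of these values, with an edgeR adjusted p of 0.0609.

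RELL2, a membrane protein related to a receptor of the tumour necrosis factor family, had a lowest, median and highest level of 56.5, 150 and 654 CPM in first-trial birds, against 35.3, 76.3 and 116 CPM in baseline birds. Above the highest baseline bird lay 10 of the 15, led by 8432, while 4 baseline birds lay below the lowest first-trial bird. The log2 fold change was 1.43 ± 0.35 (edgeR adjusted p = 0.426; DESeq2 adjusted p = 0.0318), and 1.16 without 8432. UBAC1, a subunit of a ubiquitin ligase, had a lowest, median and highest level of 278, 472 and 714 CPM in first-trial birds, against 250, 321 and 414 CPM in baseline birds. First-trial birds above the highest baseline bird numbered 11 of 15, the most among the 6 named genes of smallest p with higher values. Its log2 fold change was smaller, 0.56 ± 0.15 (edgeR adjusted p = 0.47).

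CLMN, an actin-binding membrane protein, averaged 3.22 ± 2.69 CPM after first trials and 1.03 ± 0.689 CPM at baseline (SD, n = 15 and 10), with bird 8436 highest at 10.5 CPM. All 15 first-trial birds lay above the baseline median, but 5 above the highest baseline bird (log2 fold change 1.65 ± 0.42, edgeR adjusted p = 0.448; DESeq2 adjusted p = 0.048). IL1RL1, the receptor of an alarmin cytokine, had a lowest, median and highest level of 0.69, 2.61 and 9.13 CPM in first-trial birds, against 0.472, 1.30 and 1.92 CPM in baseline birds. First-trial birds above every baseline bird numbered 10, with 8436 again the highest (1.34 ± 0.35, edgeR adjusted p = 0.47). ULK2, a kinase that starts autophagy, averaged 3.23 ± 1.40 CPM after first trials and 1.75 ± 0.569 CPM at baseline, and 7 of 15 first-trial birds lay above the highest baseline bird (0.89 ± 0.25, edgeR adjusted p = 0.621). ADGRG2, an adhesion receptor coupled to G proteins, was named after its DESeq2 call was seen. It ran from 0.20 to 2.83 CPM in first-trial birds and from 0.105 to 0.459 CPM in baseline birds, with 11 of 15 first-trial birds above all baseline birds (1.55 ± 0.38, edgeR adjusted p = 0.426; DESeq2 adjusted p = 0.048).

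**Figure D2:**
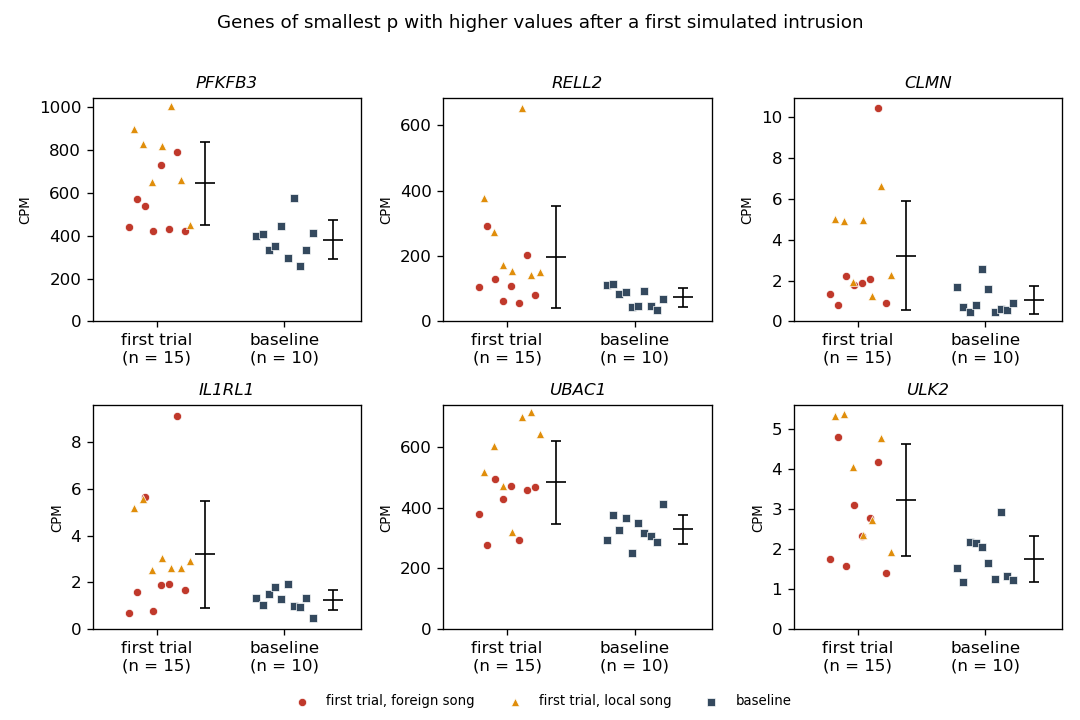
Level in CPM of the 6 named genes of smallest p with higher values after a first trial. Points are 15 first-trial birds (circles foreign song, triangles local song) and 10 baseline birds (squares). Bars are mean ± SD. The groups overlap in each panel, with 5 to 11 first-trial birds above the highest baseline bird, and the highest PFKFB3, RELL2 and UBAC1 values are birds played local song.

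Within the first trials the songs were not distinguished as wholes: 0 of 11992 genes passed for foreign against local song, with 426 at an unadjusted p under 0.05 and a lowest edgeR adjusted p of 0.389. Without the library labelled 8439 the counts were 0 and 345. The 6 named genes of smallest p with higher values all had higher means after local song. PFKFB3 averaged 544 ± 146 CPM in foreign song birds and 759 ± 186 CPM in local song birds. RELL2 averaged 130 ± 80.5 CPM in foreign song birds and 275 ± 189 CPM in local song birds, and UBAC1 averaged 410 ± 83.7 CPM in foreign and 567 ± 140 CPM in local song birds. The log2 fold changes of foreign over local song were −0.48 ± 0.18, −1.09 ± 0.37 and −0.47 ± 0.16 for PFKFB3, RELL2 and UBAC1, each with an edgeR adjusted p of 0.9996. Against baseline, foreign song birds alone gave 0.52, 0.83 and 0.33 and local song birds alone gave 0.999, 1.91 and 0.80 for the same genes in that order, so both songs had values of the same sign and the pooled values lie between them. By recording, RELL2 means were highest for stimulus 2, at 464 CPM in 2 birds, and lowest for stimulus 4, at 107 CPM in 1 bird. PFKFB3 means ran from 462 CPM for stimulus 5 to 731 CPM for stimulus 4 among foreign recordings, and from 555 CPM for stimulus 6 to 918 CPM for stimulus 2 among local recordings. The ranges of the recordings overlapped between songs.

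The glucocorticoid response list, made of target genes and the receptors NR3C1 and NR3C2, was divided in sign. Of 20 listed, 18 were tested: 10 had positive and 8 negative values, 3 were higher (16.7%, against 2.01% of all genes) and 0 lower at an unadjusted p under 0.05, and 0 passed the threshold. The list median was 0.020, against −0.045 for all genes, and it was −0.041 for foreign song alone. TSC22D3, which carries part of the anti-inflammatory action of glucocorticoids in leukocytes, had a lowest, median and highest level of 67.1, 118 and 204 CPM in first-trial birds, against 66.7, 75.2 and 110 CPM in baseline birds. Of the 15, 14 lay above the baseline median and 10 above the highest baseline bird (log2 fold change 0.55 ± 0.17, edgeR adjusted p = 0.653). Its value was 0.27 for foreign song alone and 0.82 for local song alone. ZBTB16, a zinc finger transcription factor, reached 2.53 CPM in first-trial birds and 0.757 CPM in baseline birds (1.33 ± 0.49). Its level was low, with a median of 0.473 CPM in first-trial birds and 0.252 CPM in baseline birds. SGK1, a kinase that regulates ion channels (named after its value was seen), averaged 311 ± 135 CPM after first trials and 226 ± 75.1 CPM at baseline (0.46 ± 0.20), with 2 of 15 birds above the highest baseline bird. The edgeR adjusted p was 0.745 for ZBTB16 and 0.823 for SGK1. The receptor NR3C1, counted in the list and also named afterwards, averaged 134 ± 42.1 CPM after first trials and 115 ± 32.9 CPM at baseline (0.22 ± 0.17, edgeR adjusted p = 0.874). FKBP5, a co-chaperone that dampens the receptor and is a standard glucocorticoid target in mammals, stood at −0.043 ± 0.33.

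Immediate early genes, which respond to stimuli within minutes, were evenly divided: 11 positive and 10 negative of 21 tested, with a median of 0.020. NR4A1, an orphan nuclear receptor, was the 1 member higher at an unadjusted p under 0.05 (4.76% of the list, against 2.01% of all genes). It had a lowest, median and highest level of 0.384, 1.31 and 11.5 CPM in first-trial birds, against 0.413, 0.692 and 1.51 CPM in baseline birds, the highest being local song bird 8432. Its log2 fold change was 1.32 ± 0.47 (edgeR adjusted p = 0.705) and 0.78 without 8432, a bird that also led PFKFB3, RELL2, SGK1 and ADGRG2. DUSP5, a phosphatase that switches off ERK, had the next smallest p, at 0.57 ± 0.37. FOS stood at 0.098 ± 0.22, JUN at −0.068 ± 0.39 and EGR1 at 0.038 ± 0.45, so the best-known members of this class showed no detectable difference.

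Chaperone genes leaned one way. Of 29 tested, 23 had positive and 6 negative values, and 5 were higher and 0 lower at an unadjusted p under 0.05 (17.2% higher, against 2.01% of all genes); 0 passed the threshold. The median was 0.24, and it was positive in every alternative setting run, from 0.082 in foreign song birds alone to 0.34 in local song birds alone. HSPA5, the main chaperone of the endoplasmic reticulum, had a lowest, median and highest level of 110, 202 and 295 CPM in first-trial birds, against 113, 145 and 189 CPM in baseline birds. Of the 15 first-trial birds, 8 lay above the highest baseline bird, and 1 lay below the lowest (log2 fold change 0.42 ± 0.14, edgeR adjusted p = 0.67). STIP1, a co-chaperone that passes client proteins between chaperones, averaged 56.8 ± 17.1 CPM after first trials and 40.3 ± 11.2 CPM at baseline (0.50 ± 0.17, edgeR adjusted p = 0.673). The exchange factors HSPA4 (0.39 ± 0.14) and HSPA4L (0.65 ± 0.26) and the small heat shock protein HSPB1 (1.08 ± 0.50), named after their values were seen, were the other 3, with edgeR adjusted p of 0.773, 0.815 and 0.826 in that order. HSPB1 stayed below 1 CPM in every bird. The abundant cytosolic chaperones HSPA8 (0.18 ± 0.17) and HSP90AA1 (0.24 ± 0.24) lay close to their standard errors.

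**Figure D3:**
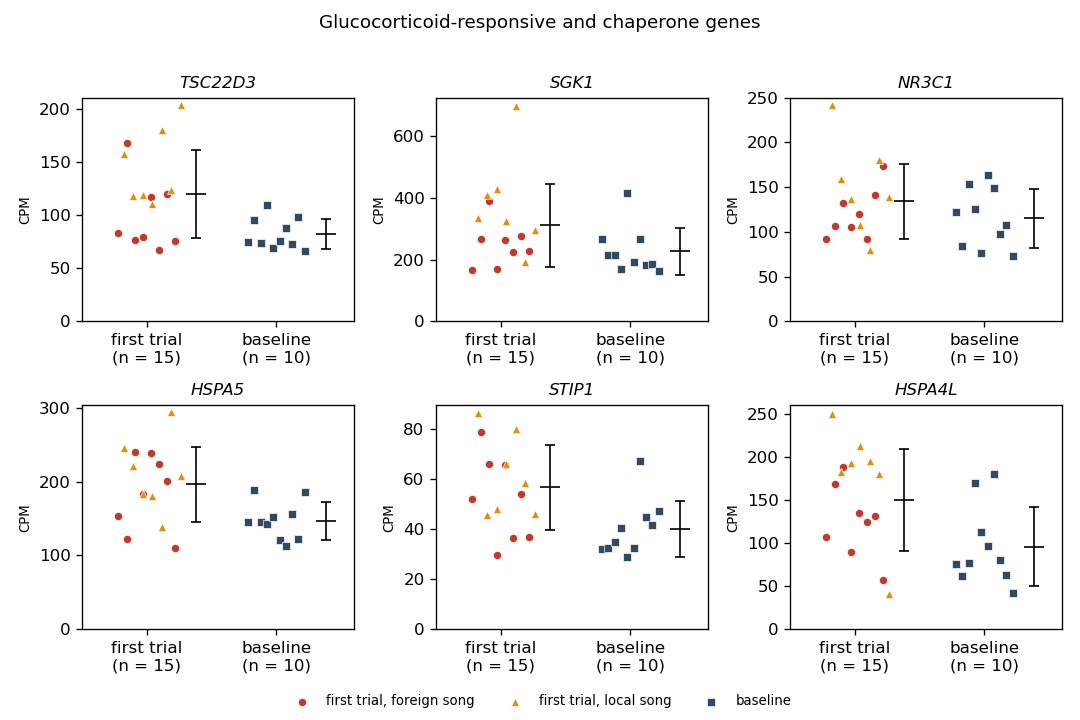
Level in CPM of 3 glucocorticoid-related genes (TSC22D3, SGK1 and the receptor NR3C1) and 3 chaperone genes (HSPA5, STIP1, HSPA4L) in 15 first-trial birds (circles foreign song, triangles local song) and 10 baseline birds (squares); bars are mean ± SD. First-trial means lie above baseline means in each panel and the groups overlap in each, with 10 first-trial birds above all baseline birds for TSC22D3 and 8 for HSPA5.

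Ribosomal protein genes showed small values of one sign: 69 of 74 tested were positive, with a median of 0.20 and a range of −0.090 to 0.55. At an unadjusted p under 0.05, 2 members (RPL13 and RPS26) were higher, 2.70% of the list, near the 2.01% of all genes. RPL13 averaged 139 ± 41.5 CPM after first trials and 107 ± 19.5 CPM at baseline (0.38 ± 0.15). RPS26 averaged 115 ± 53.0 CPM after first trials and 79.1 ± 28.8 CPM at baseline (0.55 ± 0.23). These genes vary together from bird to bird. The list's median deviation from baseline gene means had an SD of 0.341 on the log2 scale among the 10 baseline birds. For chaperones this SD was 0.195. It is a spread between single birds, not the error of a difference between groups, so it does not test either list's median. Proteasome genes (14 positive and 23 negative of 37, median −0.056) and respiratory chain genes (32 positive and 20 negative of 52, median 0.020) lay near the median of all genes. The 3 respiratory chain members below an unadjusted p of 0.05 were all lower (5.77% of the list, against 3.99% of all genes). They were NDUFB10 (−0.56 ± 0.24), SDHB (−0.32 ± 0.15, and −0.11 without 8450) and NDUFB2 (−0.46 ± 0.22, named after its value was seen). PSMD9, a proteasome assembly factor, stood at 0.34 ± 0.13 and PSMG2, another, at −0.58 ± 0.27 (−0.33 without 8448).

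T cell markers gave the lowest median of the 20 lists. Of 20 tested, 16 had negative and 4 positive values, and 9 were lower and 0 higher at an unadjusted p under 0.05 (45.0%, against 3.99% of all genes); 0 passed the threshold, and the median was −0.56. CD247, a signalling chain of the T cell receptor complex, had a lowest, median and highest level of 2.78, 6.28 and 12.6 CPM in first-trial birds, against 4.64, 8.77 and 31.4 CPM in baseline birds. Baseline birds above every first-trial bird numbered 4, led by 8448 (log2 fold change −1.005 ± 0.307, edgeR adjusted p = 0.653). TBX21, a transcription factor of T helper and cytotoxic cells, had a median of 1.11 CPM in first-trial birds and 1.86 CPM in baseline birds, and reached 23.1 CPM in 8448 (−1.49 ± 0.46, edgeR adjusted p = 0.653). The co-receptor chains CD8A (−1.94 ± 0.67) and CD8B (−1.64 ± 0.61) also peaked in 8448, at 20.1 and 20.2 CPM, while the next baseline birds had 2.43 and 2.89 CPM. CD4, the co-receptor of helper cells, stood at −0.94 ± 0.33, with 4 baseline birds above all first-trial birds. LEF1, CD5 and GATA3, which act in T cell development and signalling, were among the others below an unadjusted p of 0.05, and, like CD4, CD8A and CD8B, were named after their values were seen.

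This lean depended on 8448. Without it, 4 members were lower at an unadjusted p under 0.05 instead of 9, the median was −0.19, CD8A stood at −0.20, CD5 at −0.29, TBX21 at −0.50 and CD247 at −0.77. With a term for the mean level of leukocyte and thrombocyte markers in the fit, 2 members were lower at that level and the median was −0.20, although this covariate includes the T cell markers themselves. Without 8450 the median was −0.29 and GATA3 stood at −0.28. The summed level of the 20 markers was 73.8, 110 and 175 CPM (lowest, median and highest) in first-trial birds, against 82.1, 127 and 346 CPM in baseline birds, with the second highest baseline bird, 8450, at 251 CPM and the other 8 within the range of first-trial birds. The list's median deviation from baseline gene means had an SD of 0.78 on the log2 scale among the 10 baseline birds. This is a spread between single birds, not the error of the group difference. Whether T cell numbers or RNA per cell differed was not tested.

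The heterophil and B cell lists also leaned lower. Each had 2 members lower and 0 higher at an unadjusted p under 0.05 (16.7% and 11.1%, against 3.99% of all genes). Heterophil markers had 10 negative and 2 positive values of 12 tested and a median of −0.33, which was −0.21 without 8448. Their lowest p belonged to ALOX5AP, which presents arachidonic acid to the enzyme of leukotriene synthesis (−0.74 ± 0.33), and SRGN, a granule proteoglycan (−0.74 ± 0.36). Both were highest in 8448, at 23.0 and 79.0 CPM, and stood at −0.29 and −0.40 without it. The summed heterophil level was 26.04, 58.3 and 98.7 CPM in first-trial birds, against 34.0, 65.9 and 182 CPM in baseline birds. B cell markers had 14 negative and 4 positive values of 18 and a median of −0.26, which was −0.075 without 8448, −0.11 without 8450 and 0.097 without 8443, 8447 and 8448. They had a summed level of 204, 418 and 723 CPM in first-trial birds, against 336, 430 and 617 CPM in baseline birds. Most of this sum came from XBP1 (means of 310 CPM after first trials and 300 CPM at baseline) and BCL6 (79.2 and 84.7 CPM). The sum therefore says little about the other B cell markers. BLK, a B cell kinase, stood at −0.91 ± 0.41, and at −0.30 without 8448, where it was highest. VPREB3, a B cell precursor protein, stood at −0.85 ± 0.40 through baseline bird 8450 alone (57.2 CPM, next 13.2) and at 0.17 without that bird. Monocyte markers were divided with the songs pooled, 6 positive and 7 negative of 13, with a median of −0.039, near that of all genes. Foreign song birds alone gave 2 positive and 10 negative values of 12 (median −0.287). Local song birds alone gave 9 positive and 4 negative of 13 (median 0.18). In the pooled comparison, 1 was higher (7.69%, against 2.01% of all genes) and 0 lower at an unadjusted p under 0.05. MERTK, a receptor for the uptake of dying cells, stood at 0.74 ± 0.47. The summed monocyte level was 24.7, 67.7 and 193 CPM in first-trial birds, against 38.7, 80.4 and 143 CPM in baseline birds.

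Thrombocyte markers had 14 negative and 4 positive values of 18 and a median of −0.16, with 3 lower (16.7%, against 3.99% of all genes) and 1 higher at an unadjusted p under 0.05. ITGB3, a chain of the fibrinogen receptor, averaged 32.2 ± 10.1 CPM after first trials and 54.1 ± 52.5 CPM at baseline, where bird 8435 stood at 200 CPM. The log2 fold change was −0.75 ± 0.28, and −0.23 without that bird. PDLIM1 (−0.45 ± 0.20) and the clotting factor F13A1 (−0.35 ± 0.17), named after their values were seen, had smaller values, and stayed at −0.27 or lower when any 1 bird was left out. VWF, the ligand of platelets in mammals, was the higher one, at 0.91 ± 0.35 and under 2 CPM in every bird. The summed level of 19 thrombocyte genes, 1 of them too low for the test, was 683, 906 and 1250 CPM in first-trial birds, against 896, 1117 and 1316 CPM in baseline birds. Erythroid markers were evenly divided, 10 positive and 9 negative of 19, with the membrane skeleton protein SPTB at 0.34 ± 0.15 and UROD, an enzyme of haem synthesis, at −0.53 ± 0.24. None of the 20 lists held a member past the threshold, and the edgeR adjusted p of members named in these white cell, thrombocyte and erythroid lists was at least 0.804 outside the T cell list.

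**Figure D4:**
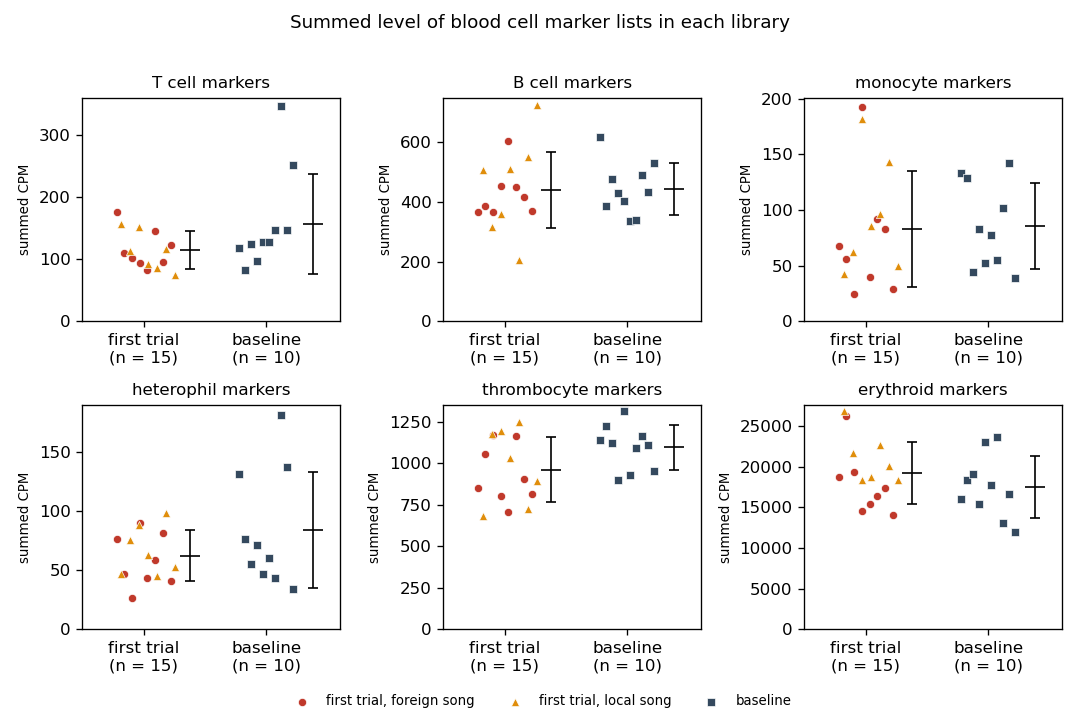
Summed level in CPM of 6 blood cell marker lists in each of 15 first-trial birds (circles foreign song, triangles local song) and 10 baseline birds (squares); bars are mean ± SD. The groups overlap for each cell type, and baseline bird 8448 is highest for T cell and heterophil markers, at 346 and 182 CPM. Most of the B cell sum comes from XBP1 and BCL6.

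Inflammatory genes of the NF-kB pathway leaned lower: 17 negative and 5 positive of 22 tested (22.7% positive, against 42.7% of all genes), with a median of −0.34. At an unadjusted p under 0.05, 2 were lower (9.09%, against 3.99% of all genes). These were TLR3, a sensor of double-stranded RNA, at 0.202 ± 0.141 CPM after first trials and 0.448 ± 0.397 CPM at baseline (−1.14 ± 0.49), and REL, a subunit of NF-kB itself, at 2.18 ± 0.814 CPM after first trials and 3.07 ± 1.31 CPM at baseline (−0.49 ± 0.23). The edgeR adjusted p was 0.815 and 0.826. Both were highest in 8448 and stood at −0.745 and −0.31 without it. Without this bird the list had 0 members at an unadjusted p under 0.05 and a median of −0.15, and with the marker term the median was −0.085. Interferon response genes did not lean with the songs pooled. Of 26, 18 were negative, but the median was −0.047, close to that of all genes. At an unadjusted p under 0.05 there were 0 members. The songs taken alone had opposite signs. Foreign song birds gave 17 positive and 9 negative values (median 0.044), and local song birds 3 positive and 23 negative (median −0.215). Whether this list differed between songs was not tested. CD274, an inhibitory ligand of T cells that interferon induces, had the largest value. It ran from 0.587 to 17.8 CPM in first-trial birds and from 0.766 to 6.84 CPM in baseline birds (0.97 ± 0.49, edgeR adjusted p = 0.847), with 8 first-trial birds above all baseline birds. SOCS3, an inhibitor of cytokine signalling, stood at −0.51 ± 0.32, and at −0.28 without 8438.

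In the glycolysis and hypoxia list, which includes PFKFB3, 22 of 31 members were negative and 9 positive, and the median was −0.13. At an unadjusted p under 0.05, 2 were lower (6.45%, against 3.99% of all genes) and 1 higher (3.23%, against 2.01%), shares not far from those of all genes. PDK1, a kinase that restrains the entry of pyruvate into mitochondria (named after its value was seen), had the highest value, 0.91 ± 0.61, at 1.29 ± 2.29 CPM after first trials and 0.687 ± 0.318 CPM at baseline. GAPDH (−0.48 ± 0.20) and ALDOC (−0.41 ± 0.19, named after its value was seen), both enzymes of glycolysis itself, were lower at an unadjusted p under 0.05, and stood at −0.30 and −0.26 without 8448. GAPDH averaged 27.4 ± 7.33 CPM after first trials and 38.2 ± 19.2 CPM at baseline, with 3 baseline birds above all first-trial birds. PKM (−0.35 ± 0.20) and ENO1 (−0.37 ± 0.24) had values of the same sign. The list median was −0.042 without 8448. Among genes that handle extracellular nucleotides, ENTPD1, which splits extracellular ATP, had a lowest, median and highest level of 1.69, 6.01 and 9.76 CPM in first-trial birds, against 1.77, 3.43 and 5.19 CPM in baseline birds. Of the 15, 14 lay above the baseline median and 9 above all baseline birds (0.82 ± 0.23, edgeR adjusted p = 0.653; 0.72 in foreign and 0.95 in local song birds alone). SLC29A1, a nucleoside transporter, averaged 495 ± 193 CPM after first trials and 361 ± 89.1 CPM at baseline (0.46 ± 0.19). The list as a whole was divided, 10 positive and 8 negative of 18.

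Medians of the remaining lists were −0.041 (steroid and catecholamine), −0.045 (circadian clock), 0.023 (oxidative stress) and −0.11 (cell division), against −0.045 for all genes. The cell division median was 0.052 without 8448. Of 10 steroid and catecholamine genes tested, with 13 others too low for the test, 5 were positive and 5 negative, and 3 were lower at an unadjusted p under 0.05 (30.0%, against 3.99% of all genes). PAQR7, PAQR8 and PAQR5 (the last named after its value was seen), membrane progestin receptors, stood at −0.74 ± 0.26, −0.87 ± 0.37 and −1.10 ± 0.52. PAQR8 stood at −0.48 without 8446, and PAQR5 averaged 0.58 ± 0.288 CPM after first trials and 1.24 ± 2.57 CPM at baseline, where the SD exceeded the mean. For PAQR7 11 of 15 first-trial birds lay below the lowest baseline bird (edgeR adjusted p = 0.691). Circadian clock genes were divided 9 to 10, with the repressor BHLHE40 at −0.605 ± 0.358 (−0.17 without 8442) and the nuclear receptor RORA at −0.61 ± 0.29, 13 of 15 first-trial birds lying below the baseline median of RORA. Oxidative stress genes were divided 18 to 12, with catalase, CAT, at −0.63 ± 0.34 (−0.15 without 8448) and GSS of glutathione synthesis at −0.37 ± 0.18. Cell division genes were divided 11 to 17 and had 0 members at an unadjusted p under 0.05, with BUB1B, a spindle checkpoint kinase, at −0.37 ± 0.22 and CENPF, a kinetochore protein, at 0.52 ± 0.32.

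**Figure D5:**
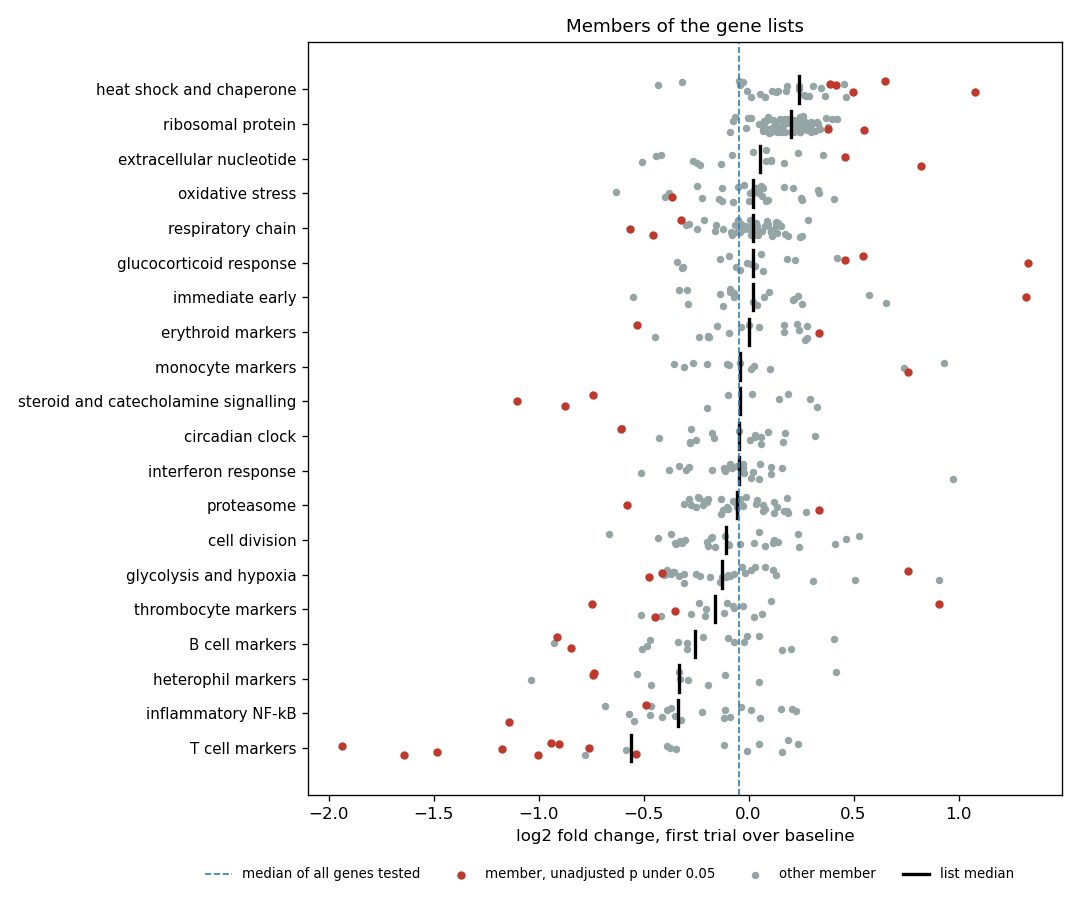
Log2 fold change of first trial over baseline for each tested member of 20 gene lists; black bars are list medians, red points members at an unadjusted p under 0.05, grey points the others, and the dashed line the median of all genes tested, −0.045. Chaperone and ribosomal protein lists have the highest medians, 0.24 and 0.20, and T cell markers the lowest, −0.56.

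The 8 second-trial libraries come from birds of the first trials, and they share the baseline birds, so their levels are given for description. First-trial levels here cover all 15 birds, not only those with a second library, so these medians do not measure change within birds. RELL2 moved in both directions within birds: from 379 to 249 CPM in 8422 and from 274 to 521 CPM in 8426. PFKFB3 had a lowest, median and highest level of 292, 660 and 1080 CPM in second trials, against 420, 651 and 1008 CPM in first trials and 256, 375 and 576 CPM at baseline. RELL2 had a median of 202 CPM in second trials, 150 CPM in first trials and 76.3 CPM at baseline, and for TSC22D3 the medians were 135, 118 and 75.2 CPM in the same order. HSPA5 had a median of 161 CPM in second trials, 202 CPM in first trials and 145 CPM at baseline. DBT had a median of 0.916 CPM in second trials. Its highest value there, 13.8 CPM, was in the library labelled 8439, whose first-trial library held 1.49 CPM.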

How the data were processed

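Per the labels' protocols, RNA from whole blood was DNase-treated and enriched for poly(A) transcripts, a KAPA HyperPrep kit made the libraries with no removal of haemoglobin transcripts, and a NovaSeq X Plus gave paired-end reads. For trimming and alignment the submitters' processing notes name fastp and STAR. Their versions, the counting program, any strand setting and the build are not stated in the labels, so overlapping, antisense and near-identical genes are uncertain. The authors deposited whole-number read counts per gene, 21141 rows a library, not normalized. A RefSeq table (assembly bMelMel2.pri) held the symbols of 20961 rows and served for names and neighbours only. Promoter sequences were not used here, and some genes are not reported here.

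The comparison was fitted to counts of the 25 libraries by edgeR 4.0.16 under R 4.3.3. Genes were kept by filterByExpr over the pooled groups (minimum count 10, minimum total 15), scaled by TMM and tested with robust quasi-likelihood dispersions. P-values were adjusted by Benjamini-Hochberg over 11992 genes, at a threshold of 0.05. Standard errors restate the test: they are |log2 fold change|/√F. Printed CPM share 1 TMM scaling of all 33 libraries. Foreign and local song were compared in a 3-group fit of the same libraries. DESeq2 1.42.0 and limma 3.58.1 served as alternatives. Library measures had two-sided permutation tests of 1e+05 resamples. The fit was also tested on simulated counts drawn with each gene's estimated dispersion. It recovered 18% of genes changed 1.5-fold, 48% of those changed 2-fold and 89.4% of those changed 3-fold. Many changes of 2-fold or less would thus be missed. The simulation changed 200 genes at once and drew each gene independently, whereas genes here vary together between birds. Its rates may therefore be too high for these data. Genes named were the 6 of smallest p in each direction (average log2 CPM of at least 0, no LOC number) and the 2 of smallest p in each list. Others are said to be named after their values were seen. FKBP5, HSPA8, HSP90AA1, FOS, JUN, EGR1, PKM, ENO1 and the genes of the closing observations were so chosen too. The members and gene lists were chosen with earlier results of these data known.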

Additional observations from a re-analysis of the deposited data

Results flagged for a closer look

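For the genes named and the library measures, 54 sets of 10 baseline libraries were examined for 1 library far from the others by Dixon's criterion, and 11 were so marked. Chance marks about 1 set in 20 only where sets are picked without regard to their values. The genes were named by smallest p in these same data, which 1 extreme baseline bird can bring. The rate therefore does not apply to them. Gene levels were compared on the log scale. First-trial birds, a group of 15, were too many for this criterion. The single high baseline values were SHROOM2 in 8442 (258 CPM), FLVCR1 in 8448 (36.6 CPM), CEP170B in 8447 (86 CPM), SGO1 in 8447 (29 CPM), NSG1 in 8449 (66.3 CPM), ITGB3 in 8435 (200 CPM), PAQR8 in 8446 (2.53 CPM) and SDHB in 8450 (136 CPM). GSS in 8448 (9.36 CPM) and RPS26 in 8450 (26.8 CPM) were the lowest of the baseline birds. The deepest baseline library, 8448, had 103.7 M counts.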

How the results depend on the processing

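The count of genes past the threshold was 1, and it was 0 with limma-voom, without a filter on low counts, with songs weighted equally, with either song alone, without the library labelled 8439, with the marker covariate, with the covariate for the 10 most abundant genes, and without any 1 stimulus. DESeq2 gave 5. Leaving out single birds gave 0 to 1. The count at an unadjusted p under 0.05 was 720, against 1558 without a filter, 352 for foreign song alone and 501 to 1182 when single birds were left out. No bird is in both groups, so the labels pair none of these libraries. In a fit of all 33 libraries with bird as the replicate block (limma-voom, correlation 0.382) the counts were 0 and 463. Added after seeing the data, leaving out 8437 and 8450 gave 0 and 1085, and leaving out 8443, 8447 and 8448 gave 0 and 541. Of 71 named genes followed through the settings, 69 kept their sign in every setting. FOS, JUN, EGR1, FKBP5, HSPA8, PKM, ENO1, PDK1 and PAQR5 were not among the 71. Most of the 71 were named by smallest p in these same libraries, which the settings reuse. Kept signs are therefore no independent support. VPREB3 turned to 0.172 with DESeq2 and 0.171 without 8437 and 8450, and ran from −0.942 to 0.169 when single birds were left out, the last without 8450. RTCA turned to 0.241 without 8443, 8447 and 8448, which held its high values. The difference in depth turned from −0.156 M counts to 1.253 M without 8439 and 0.491 M without 8425 and 8446, each far within the spread. The causes of these shifts were not tested.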

Other observations

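Among the first-trial and baseline libraries, DBT's neighbours in the RefSeq annotation were high in the same 3 baseline birds, 8443, 8447 and 8448. RTCA, an RNA cyclase, stood at 2.57 to 3.97 CPM in them and at no more than 0.807 CPM in the other 22 birds. LRRC39, too low for the test, stood at 7.51 to 12.6 CPM in them and at no more than 0.314 CPM in the other 22. The second-trial library labelled 8439 was raised as well, with DBT at 13.8, RTCA at 0.906 and LRRC39 at 6.29 CPM, while its first-trial library held DBT at 1.49 CPM. The 3 baseline birds had no second library, so whether the level is stable within a bird was not tested.

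A LOC-numbered gene, which the naming rule left out, showed the reverse arrangement, with a log2 fold change of 7.53 ± 1.77 (edgeR adjusted p = 0.416). LOC134432669 stood at 67.5, 53.4 and 57.9 CPM in first-trial birds 8428, 8433 and 8436, all played foreign song, at no more than 0.667 CPM in each other first-trial bird and at no more than 0.173 CPM in each baseline bird. Birds 8428 and 8436 held it again in their second-trial libraries, at 49.3 and 44.1 CPM after local song. The other 6 birds with 2 libraries were low in both.

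Genes extreme in 1 bird (at least 10 CPM and 10 times the next library) numbered 7 over 15 first-trial libraries and 11 over 10 baseline libraries. Among first-trial birds they included KIF14, a mitotic kinesin, in 8425 (10.1 CPM, next 0.513), and the neighbouring numbers LOC134423304 and LOC134423305 in 8429 (146 and 71.8 CPM). Among baseline birds they included SIK2, a kinase, in 8435 (26.6 CPM, next 1.03) and MGME1, a mitochondrial nuclease, in 8448 (25.3 CPM, next 1.82). No cause of these values was tested.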
